A study of Mus musculus with 19 samples.

Results

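Adipocyte identity genes are described here in 2 tissues of female NOD mice, an inbred strain that develops autoimmune diabetes. The members are 7 genes, Pparg, Cebpa, Cebpb, Fabp4, Lpl, Car3 and Cd36, and they were chosen by name: every probe set that the array annotation pairs with one of these symbols was taken. They have 17 probe sets out of 45037 measured (Fabp4 and Car3 have 4 each, Cd36 has 3, Cebpb and Lpl have 2 each, and Pparg and Cebpa have 1 each), and they are 7 of the 18193 genes on the array. All 17 gave a signal over 1 in every array, so no member was lost to a filter.

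Fat and pancreatic lymph nodes (PLNs) were profiled on Affymetrix whole-genome mouse arrays to follow gene expression from health to new onset diabetes and after treatments. All animals were female mice of the strain labelled NOD (NOD/LtJx). The groups were normoglycemic mice (NOR; 2 fat and 4 PLN arrays), mice with new onset diabetes (DIA; 2 fat and 2 PLN arrays), diabetic mice given alpha1 anti-trypsin, a serine protease inhibitor (AAT; 2 fat and 4 PLN arrays), and diabetic mice given Power Mix (PM; 3 fat arrays). Power Mix joins IL2.Ig, a mutant antagonist-type IL15.Ig and rapamycin, and it was studied in fat only. The labels give neither the age of these mice nor the fat depot. They also do not say that each array came from its own mouse, so p-values measure only the spread between these arrays, which may be technical. In bulk tissue, fewer cells of a type and less RNA per cell cannot be told apart.

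White adipocytes are made when CEBPB and its relatives switch on the nuclear receptor PPARG and its partner CEBPA, and these 2 factors then keep each other on and drive the genes of the fat cell. Among those genes, LPL frees fatty acids from circulating lipoproteins, CD36 takes them up at the membrane, FABP4 carries them inside the cell, and CAR3 is a carbonic anhydrase that makes up much of the protein of rodent adipocytes. Several members also work outside adipocytes: macrophages use Fabp4, Lpl and Cd36, capillary endothelium uses Fabp4 and Cd36, and Cebpb is an inflammatory response factor of myeloid cells.

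The signal of a probe set is an MAS5 intensity on a linear scale, and each array was scaled so that its 2% trimmed mean is 500. Levels of different probe sets are not compared with each other. Changes are log2 differences of group means minus the median log2 difference of all probe sets, while the p-values belong to the differences as measured. That median was −0.11 for DIA vs NOR, −0.05 for AAT vs DIA and 0.15 for PM vs DIA in fat, −0.11 for DIA vs NOR in PLNs, and 0.04, 0.15 and 0.69 for fat against PLNs in NOR, DIA and AAT mice. It was −0.58 in PLN AAT vs DIA and −0.72 in PLN AAT vs NOR. Unless another probe set is named, a gene is given by the one of its probe sets whose mean log2 signal over all arrays was highest. Across the whole series, replicate arrays of a group correlated at 0.705 to 0.890. The AAT nodes 2 and 4 had the lowest median signals of all arrays (6.53 and 6.56 on the log2 scale) and the highest Gapdh 3′ to 5′ ratios, a sign of RNA or amplification quality (20.6 and 25.0; the other 8 nodes lay between 5.55 and 10.8).

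All 7 members were higher in fat than in PLNs of NOR mice. There, 13.2% of all genes were higher in fat at an adjusted p under 0.05 (limma, Benjamini and Hochberg adjustment over all probe sets), and all 7 members were called. The same count was 7 of 7 in DIA mice, where 12% of all genes were called higher, and 6 of 7 in AAT mice, where 21.8% were. Every one of the 17 probe sets passed in NOR mice, beside 10.3% of all probe sets, with relative changes from 1.73 to 10.25 on the log2 scale. Of 21 other adipocyte markers 19 were called higher in NOR fat, and the adipokine Adipoq was higher by 8.22 ± 0.88 (SE). In the other direction, all 13 lymphocyte markers lay below the median change of all genes, with a median of −5.77 relative to it.

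Among the transcription factors, Pparg was bright in fat and dim in nodes. Its fat signals were 2151 and 2865 in NOR, 927 and 1735 in DIA, 1996 and 1717 in AAT, and 3544, 2507 and 2975 in PM. Its node signals were 28.0, 19.4, 8.64 and 43.2 in NOR, 86.6 and 60.5 in DIA, and 25.2, 183, 26.9 and 30.9 in AAT. The lowest fat array thus lay above the highest node array, and the change in NOR mice was 6.83 ± 0.75 (SE; adjusted p = 8.35e-07, limma). The NOR node signals lay at the 3.80th to 10.5th percentile of their arrays. The size of the gap depended on how such dim signals were treated, since it was 5.71 with signals floored at the 20th percentile and 5.48 with 32 added to every signal, and called in both.

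The RefSeq promoter table (assembly GRCm38.p6) lists 6 start sites for 4 of the members. The 250 bases before each were searched on both strands for TTGCNNAA, a loose form of the letters that CEBP proteins bind, and for the DR1 element that PPARG binds with RXR, written as 2 copies of AGGTCA with 1 base between them. The first motif was held by 9.56% of the 32851 promoters listed and the second by 0.0335%. The only member start site with the first motif was the last of the 3 listed for Pparg, which held it 215 and 16 bases before the start, and no member start site held the second. That stretch is shown because Pparg and the CEBP genes are all high in fat, with the motif in capitals (plus strand, chr6:115421816-115422065):
Pparg: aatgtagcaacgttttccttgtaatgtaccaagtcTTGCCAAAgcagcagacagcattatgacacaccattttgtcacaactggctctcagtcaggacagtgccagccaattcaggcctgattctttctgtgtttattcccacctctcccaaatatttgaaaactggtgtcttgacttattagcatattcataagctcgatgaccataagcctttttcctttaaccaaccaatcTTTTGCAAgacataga
A match of letters is a description and does not show that a factor binds there.

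Cebpa, the factor that holds adipocytes in the mature state, had fat signals of 8749 and 10160 in NOR, 9481 and 14610 in DIA, 10530 and 6782 in AAT, and 13270, 10280 and 11560 in PM. Its node signals were 123, 896, 527 and 484 in NOR, 1000 and 1037 in DIA, and 424, 2593, 851 and 274 in AAT. The 9 fat arrays spanned a 2.15-fold range, the narrowest among the highest-mean probe sets of the 7 genes, while the 10 node arrays spanned 21.0-fold. The change between tissues in NOR mice was 4.48 ± 0.67 (SE; adjusted p = 3.63e-05, limma).

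Cebpb, the early factor of adipocyte differentiation, was the member with the smallest gap between tissues. Its fat signals were 3310 and 2507 in NOR, 2427 and 4265 in DIA, 4777 and 5028 in AAT, and 6234, 7495 and 5759 in PM. Its node signals were 1068, 840, 619 and 899 in NOR, 869 and 674 in DIA, and 2548, 1811, 2833 and 3925 in AAT. All 4 AAT nodes lay above the other 6 nodes and 3 of them reached into the range of the fat arrays, and in AAT mice Cebpb was not called between tissues (0.19 ± 0.38 SE, adjusted p = 0.0839). In NOR mice the change was 1.73 ± 0.38 (SE; adjusted p = 0.00155, limma). Its second probe set, 1427844_a_at, was called in both, at 4.75 ± 0.99 (adjusted p = 0.000317) in AAT mice and 4.34 ± 0.99 in NOR mice.

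The lipid handling genes were among the brightest probe sets in fat. Fabp4 probe set 1451263_a_at gave 197200 and 92820 in NOR fat, 56510 and 89730 in DIA, 47110 and 116200 in AAT, and 68040, 123200 and 73970 in PM. In nodes it gave 2541, 3163, 2590 and 4612 in NOR, 2972 and 1977 in DIA, and 6976, 20420, 22830 and 26980 in AAT. Within fat the higher DIA array lay just below the lower NOR array and the other groups overlapped, whereas all 4 AAT nodes lay above all 6 other nodes.

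Lpl gave 69010 and 74330 in NOR fat, 61150 and 100900 in DIA, 51100 and 27130 in AAT, and 76170, 33600 and 62040 in PM. In nodes it gave 744, 368, 700 and 1958 in NOR, 274 and 284 in DIA, and 981, 5481, 8555 and 9089 in AAT. Both DIA nodes lay below every NOR node, and 3 of the 4 AAT nodes lay above all NOR nodes, with AAT node 1 inside the NOR range.

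Car3 probe set 1449434_at gave 308000 and 156000 in NOR fat, 92270 and 136100 in DIA, 87440 and 221800 in AAT, and 122000, 237900 and 146100 in PM. In nodes it gave 1287, 1179, 256 and 1756 in NOR, 228 and 166 in DIA, and 1909, 19290, 10030 and 22540 in AAT. It spanned 136-fold over the 10 nodes, the widest range of the 7 highest-mean probe sets, against 3.52-fold over the 9 fat arrays. AAT node 1 lay just above the highest NOR node, and the other 3 AAT nodes lay well above it.

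Cd36 gave 9750 and 32690 in NOR fat, 10320 and 15140 in DIA, 25480 and 3323 in AAT, and 20030, 5048 and 20370 in PM. In nodes it gave 678, 1188, 664 and 700 in NOR, 453 and 637 in DIA, and 423, 1293, 882 and 1373 in AAT. Both DIA nodes lay just below the NOR nodes, and the AAT nodes overlapped both groups. In this probe set, 1450883_a_at, fat had the wider range, 9.84-fold against 3.25-fold in nodes. Cd36 probe sets 1423166_at and 1450884_at went the other way, each with a wider fold range in nodes than in fat. Over all 9 fat and 10 node arrays, every fat array lay above every node array for 6 of the 7 genes, all but Cebpb, as for 10.5% of all genes. This holds for the highest-mean probe sets. In Car3 probe sets 1430584_s_at and 1453588_at the lowest fat signals were 532 and 206 and the highest node signals 1011 and 487. The tissues also overlapped in Cebpb probe set 1427844_a_at. An exact two-sided permutation test of the difference of mean log2 signals gave adjusted p-values from 3.79e-05 to 0.000541 over the 7 genes.

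**Figure D1:**
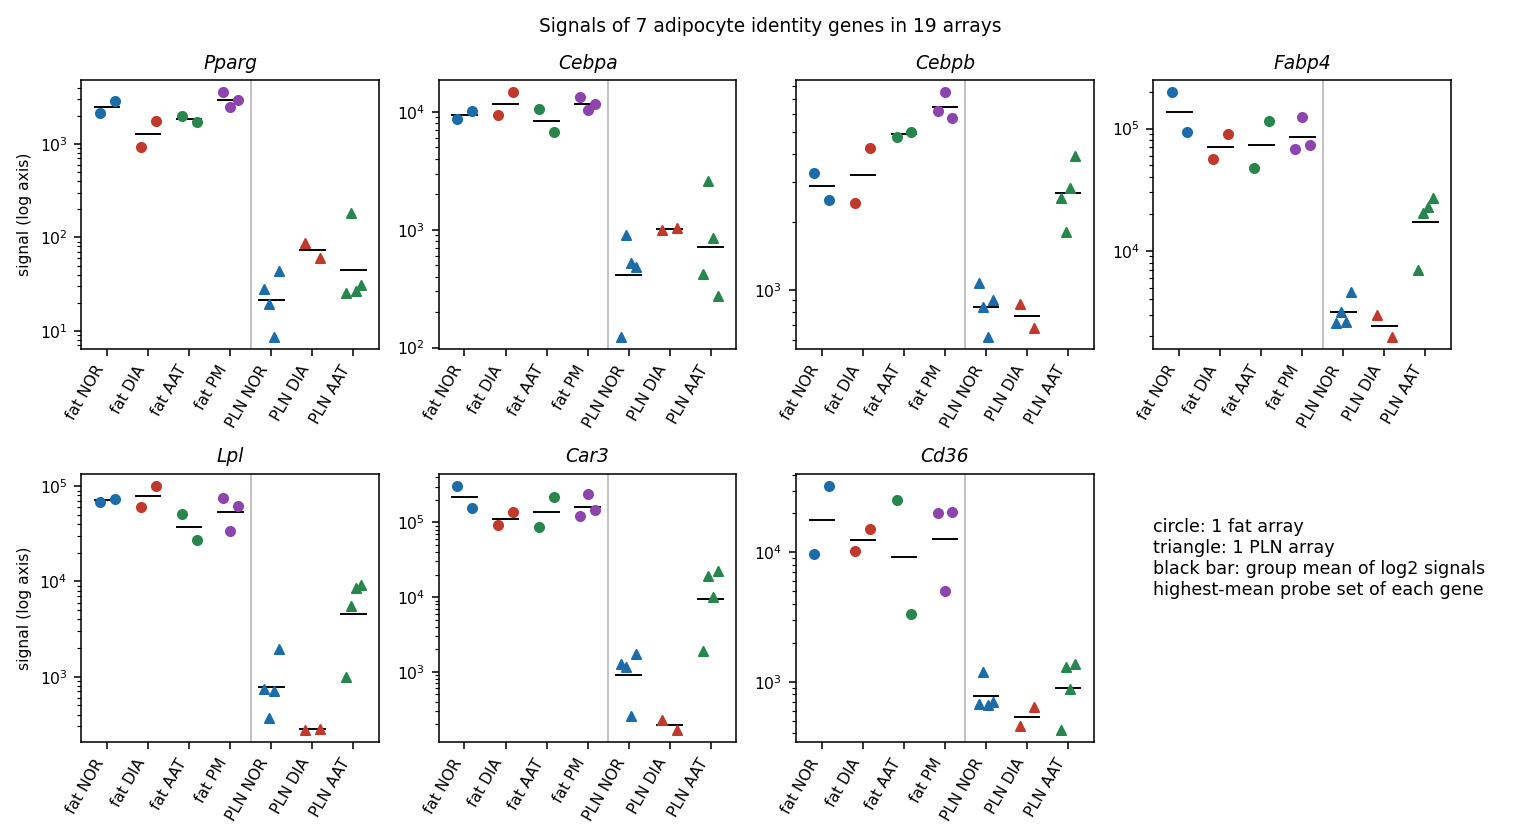
Signal of each of the 7 genes in every array (vertical axes, log scale, MAS5 signal of the highest-mean probe set), by tissue and group, with 1 point per array and a black bar at the mean of the log2 signals. All fat arrays lie above all PLN arrays except for Cebpb, and the AAT nodes lie highest among nodes for Cebpb, Fabp4 and Car3.

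Some fat arrays stood apart in the probe sets of single genes. NOR array 1, AAT array 2 and PM array 2 had the highest signals of Car3 probe set 1449434_at and of Fabp4 probe sets 1451263_a_at and 1417023_a_at among the 9 fat arrays. In the same arrays Car3 probe set 1430584_s_at gave 8471, 532 and 1069, against 10400 to 41340 in the other 6. Car3 probe set 1453588_at gave 7188, 350 and 206 there, against 9743 to 36170.

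Fabp4 split likewise. Probe set 1424155_at gave 1522, 520 and 506 in these 3 arrays, against 4851 to 8517 in the other 6, and probe set 1425809_at gave 2890, 583 and 554, against 3855 to 11640. Across the 9 fat arrays the log2 signals of Fabp4 probe sets 1417023_a_at and 1424155_at correlated at −0.78 and those of 1417023_a_at and 1451263_a_at at 0.98. For Car3, 1449434_at correlated at −0.73 with 1430584_s_at and at 0.89 with 1460256_at. A gene level of Fabp4 or Car3 within fat therefore depended on the probe set.

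All 3 Cd36 probe sets were lowest in these 3 arrays. Probe set 1423166_at gave 5783, 3678 and 3342 there, against 17060 to 32460 in the other 6, and 1450884_at gave 1540, 860 and 912, against 7762 to 11880. The mean log2 signal of 14 endothelial markers was 7.97, 9.06 and 7.67 in the 3 arrays and 10.24 to 11.34 in the other 6. Endothelium expresses Cd36, and its part in the Cd36 signal was not tested. Gpihbp1, the capillary anchor of LPL, was also lowest there, at 1201, 993 and 973 against 4410 to 15720.

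**Figure D2:**
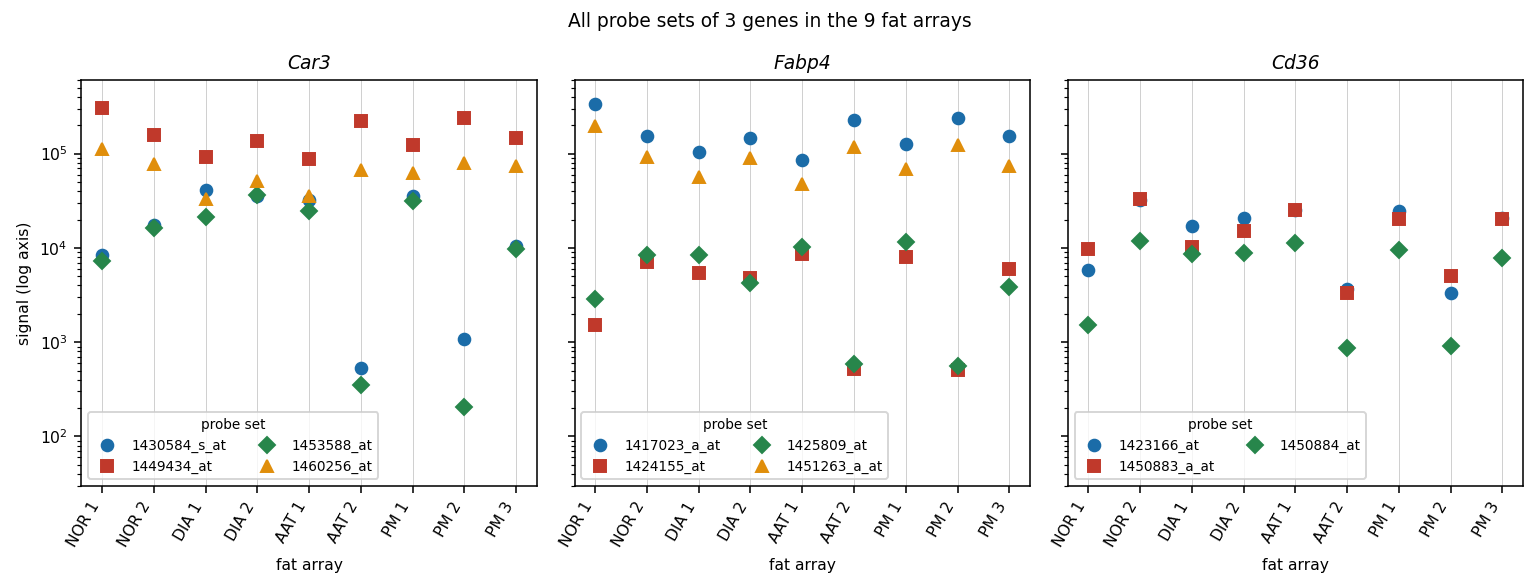
Signal (vertical axes, log scale) of every probe set of Car3, Fabp4 and Cd36 in the 9 fat arrays (horizontal axes), with 1 symbol per probe set. In NOR 1, AAT 2 and PM 2, 2 Car3 probe sets, 2 Fabp4 probe sets and all 3 Cd36 probe sets fall while the other Car3 and Fabp4 probe sets are not lowered.

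Within fat, none of the 7 genes passed an adjusted p under 0.05 in any of the 6 comparisons between groups (limma), and neither did any probe set on the array (background 0%). At an unadjusted p under 0.05 there was 1 member in DIA vs NOR (8.73% of all genes), in AAT vs NOR (5.44%) and in PM vs NOR (2.97%). There were 2 in PM vs DIA (10.3% of all genes), and the counts were 0 for AAT vs DIA (5.03%) and 0 for PM vs AAT (5.86%). The study's methods used a fold over 2 together with p up to 0.05. This pair of thresholds was passed by 0 members in DIA vs NOR (6.78% of all genes), AAT vs DIA (3.71%), AAT vs NOR (4.64%) and PM vs AAT (4.84%), by Cebpb in PM vs NOR (2.53%), and by Pparg and Cebpb in PM vs DIA (7.24%). Without DIA array 1 the last count was 0, and without PM array 2 it was 1. The count in DIA vs NOR was 1 without NOR array 1 or DIA array 2, and 2 without NOR array 1, AAT array 2 and PM array 2 together. In AAT vs DIA it was 1 without DIA array 2 or AAT array 1.

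Pparg had its lowest mean in DIA fat and its highest in PM fat. Its change was −0.86 ± 0.36 (SE) in DIA vs NOR, with unadjusted p = 0.0193 and adjusted p = 0.478 (limma). In PM vs DIA its change was 1.08 ± 0.33 (SE), with unadjusted p = 0.0028 and adjusted p = 0.355 (limma). Both values rested on single arrays, at −0.37 and 0.61 without DIA array 1 and −1.40 and 1.62 without DIA array 2, and the first was −0.46 without NOR array 2. In AAT vs DIA the value was 0.59 ± 0.36 (SE) and the groups overlapped.

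Cebpb had its highest mean in PM fat. Its change was 0.86 ± 0.31 (SE) in PM vs DIA (adjusted p = 0.402, limma) and 1.15 ± 0.31 in PM vs NOR (adjusted p = 1). The first was 0.43 without DIA array 1 and 1.35 without DIA array 2. Its second probe set, 1427844_a_at, gave 1.02 ± 0.47 in PM vs DIA and 0.75 ± 0.47 in PM vs NOR. In AAT vs NOR the value of the first probe set was 0.90 ± 0.34 and in DIA vs NOR it was 0.27 ± 0.34.

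The genes that carry out lipid uptake and storage had larger errors. In DIA vs NOR the values were −0.82 ± 0.68 (SE) for Fabp4, −0.86 ± 0.76 for Car3, 0.24 ± 0.58 for Lpl and −0.41 ± 0.92 for Cd36. As mean log2 signals in DIA and NOR fat, Car3 1430584_s_at gave 15.23 and 13.57 and 1453588_at 14.76 and 13.4, both higher in DIA. Fabp4 1424155_at (12.33 and 11.68) and 1425809_at (12.54 and 12.27) were also higher. So were Cd36 1423166_at (14.2 and 13.74) and 1450884_at (13.08 and 12.06). Car3 1460256_at (15.33 and 16.51), Fabp4 1417023_a_at (16.91 and 17.81) and Lpl 1431056_a_at (13.65 and 13.76) were lower. Lpl was at −1.03 ± 0.58 when AAT was set against DIA, with values of −0.46 without AAT array 2, −0.59 without DIA array 2 and −1.69 without AAT array 1, and it was at −0.68 ± 0.53 for PM against DIA. Cebpa lay between −0.43 and 0.43 in these 3 comparisons.

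Of the 21 other adipocyte markers, 12 lay above the median of all genes when DIA fat was set against NOR, 5 when AAT was set against DIA and 6 for PM against DIA, and 0 were called (limma). At the study's thresholds 2, 4 and 3 of them passed, beside 6.78%, 3.71% and 7.24% of all genes. The study's thresholds were passed in DIA vs NOR by Dgat2, which makes triglyceride (2.33 ± 0.72), and by Pck1, which makes its glycerol backbone in fat (−1.22 ± 0.52). In PM vs DIA both had the other sign, where Dgat2 was −2.46 ± 0.65 and Pck1 was 1.55 ± 0.48. The 33 regulators of adipogenesis had a median of 0.19 above that of all genes in DIA vs NOR, with 3 past the study's thresholds upward and 1 downward, beside the same 6.78% of all genes.

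No macrophage or fibroblast marker was called in fat DIA vs NOR. There, 14 of 17 macrophage markers and 12 of 12 fibroblast and preadipocyte markers lay above the median of all genes, and 6 and 2 of them passed the study's thresholds (6.78% of all genes). The mean log2 signal of the macrophage markers was 8.62 and 8.67 in NOR, 9.21 and 9.64 in DIA, 9.16 and 9.09 in AAT, and 8.90, 9.39 and 9.04 in PM. The actin 3′ to 5′ ratio was 15.2 and 15.5 in DIA fat and 3.35 to 9.08 in the other 7 fat arrays. The part of either in the fat values above was not tested.

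In PLNs, no member was called in DIA vs NOR (limma; 0.033% of all genes were). Car3 alone of the 7 was under an unadjusted p of 0.05, as 10.1% of all genes were, and it passed the study's thresholds, as 9.9% did. Its change was −2.11 ± 0.80 (SE; adjusted p = 0.333, limma), and both DIA nodes lay below all 4 NOR nodes. The count past the thresholds was 0 without DIA node 2, 2 without AAT node 1 and 3 without NOR node 2. Lpl, at −1.38 ± 0.73, and Cd36, at −0.43 ± 0.54, had no overlap either in their highest-mean probe sets. Lpl probe set 1431056_a_at had a higher mean log2 signal in DIA than in NOR nodes (8.12 against 7.07). Cd36 probe set 1423166_at was also higher (7.44 against 6.59), while 1450884_at was lower (5.08 against 7.33). Of all genes, 14.8% were lower in both DIA nodes than in every NOR node. Rank products, the test named in the study's methods, put 1 member past the thresholds in this comparison and 0 in DIA vs NOR of fat. Pparg and Cebpa were higher in both DIA nodes than in every NOR node, as 7.21% of all genes were, at 1.88 ± 1.25 and 1.43 ± 0.78, and did not pass. The value of Pparg was 0.66 with signals floored at the 20th percentile and 0.99 with 32 added, and that of Cebpa was −0.23 with the actin ratio as covariate.

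In the highest-mean probe sets, AAT nodes carried more Fabp4, Lpl and Car3 signal than nodes of diabetic mice. In PLN AAT vs DIA these 3 members were called higher, where 0.181% of all genes were. In them and in Cebpb the AAT arrays all lay above the DIA arrays, as in 8.13% of all genes. The changes were 6.20 ± 0.80 (SE) for Car3 (adjusted p = 0.0189, limma), 4.60 ± 0.73 for Lpl (adjusted p = 0.0385) and 3.41 ± 0.49 for Fabp4 (adjusted p = 0.0363). Cebpb, at 2.39 ± 0.45, had an adjusted p of 0.0989. Pparg at −0.13 ± 1.25, Cebpa at 0.07 ± 0.78 and Cd36 at 1.33 ± 0.54 were not called. Without AAT node 3, AAT node 4 or DIA node 1 the number of calls was 0, and without NOR node 1 or NOR node 3 it was 1. With the replicate numbers as a block it was also 1.

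Against normoglycemic mice 4 members were called higher in AAT nodes, where 1.82% of all genes were. Fabp4 changed by 3.18 ± 0.40 (SE; adjusted p = 0.0067), Car3 by 4.12 ± 0.65 (adjusted p = 0.0143), Cebpb by 2.39 ± 0.36 (adjusted p = 0.0224) and Lpl by 3.25 ± 0.60 (adjusted p = 0.0287, all limma). All 4 AAT nodes lay above all 4 NOR nodes for Fabp4, Car3 and Cebpb, as for 5.26% of all genes, and the groups overlapped for Lpl. Without NOR node 1, 2 or 3 or without AAT node 4, 2 calls were left. Without AAT nodes 2 and 4 together, the arrays with high Gapdh ratios, 2 calls were left here and 0 in AAT vs DIA. With the Gapdh ratio as a covariate 0 members were called against NOR and 2 against DIA, and with the actin ratio 4 and 0.

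Apart from Fabp4, each of these node calls rested on 1 probe set. For Fabp4, probe set 1417023_a_at was called too in AAT vs NOR (2.65 ± 0.46 SE, adjusted p = 0.0307), while 1424155_at gave 0.49 ± 0.80 and 1425809_at gave 1.00 ± 0.97. The second Lpl probe set, 1431056_a_at, gave 1.62 ± 0.68 (adjusted p = 0.421), with node signals of 167, 168, 88.8 and 132 in NOR and 173, 810, 110 and 254 in AAT. The other Car3 probe sets gave −1.01 ± 0.83 (1430584_s_at), 0.82 ± 1.02 (1453588_at) and 1.77 ± 1.07 (1460256_at). In AAT and DIA nodes, the mean log2 signals as measured were 7.97 and 8.12 for Lpl 1431056_a_at and 6.40 and 7.66 for Fabp4 1424155_at. The other Fabp4 probe sets gave 11.81 and 9.88 (1417023_a_at) and 6.73 and 4.93 (1425809_at). For Car3 they were 6.906 and 6.909 (1430584_s_at), 6.925 and 3.637 (1453588_at), and 7.263 and 6.205 (1460256_at).

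The second Cebpb probe set ran the other way, at −0.36 ± 1.11 in AAT vs NOR and −3.46 ± 1.37 in AAT vs DIA (adjusted p = 0.179). It was dim in nodes, at 25.2, 148, 7.16 and 80.9 in NOR, 547 and 163 in DIA, and 12.8, 26.3, 52.8 and 6.10 in AAT. When the probe sets of a gene were averaged, 0 members were called in either AAT comparison of the nodes.

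**Figure D3:**
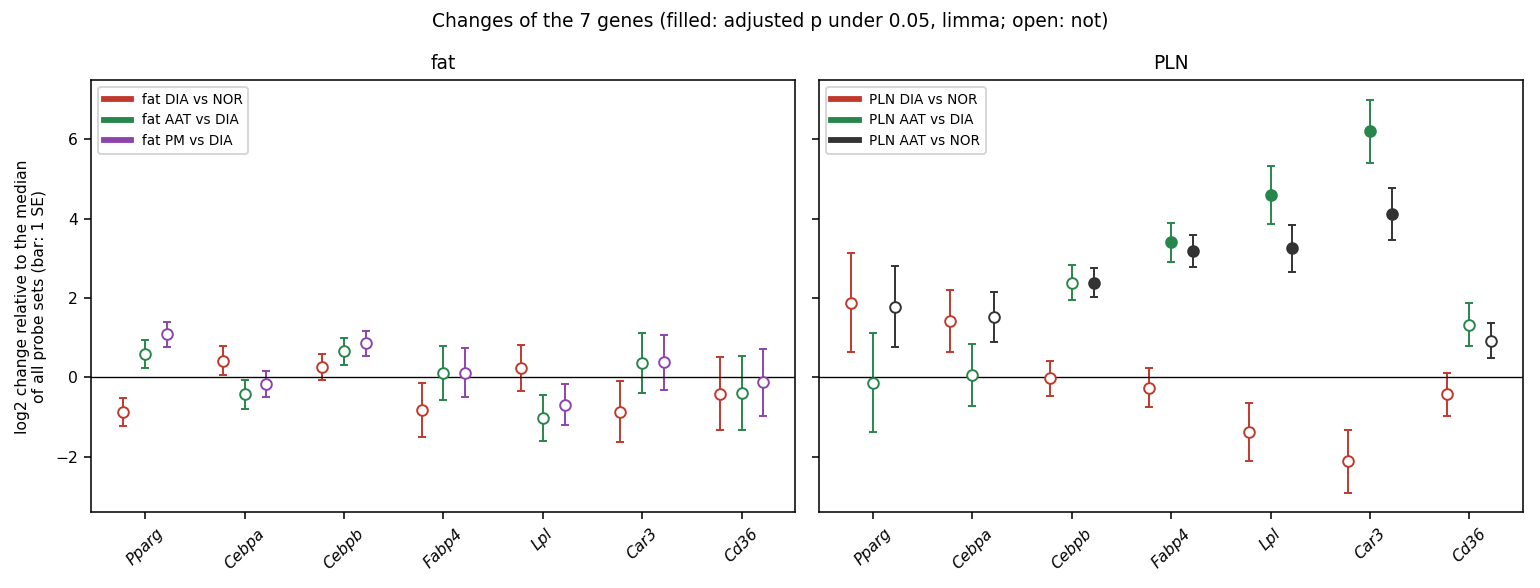
Log2 change of each gene relative to the median of all probe sets (vertical axis, bars of 1 SE, highest-mean probe set) in 3 comparisons of fat (left) and of PLNs (right), where filled points have an adjusted p under 0.05 in limma and open points do not. Filled points appear only in the 2 AAT comparisons of PLNs, for Car3, Lpl, Fabp4 and, against NOR, Cebpb.

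The AAT change was also set against that of fat in 1 fit of all arrays. The AAT vs DIA change in fat minus that in PLNs was −5.79 ± 1.14 (SE) for Car3, −5.58 ± 1.02 for Lpl and −3.25 ± 0.77 for Fabp4, with adjusted p-values of 0.226, 0.220 and 0.360 (limma). No member passed an adjusted p under 0.05 in this comparison, as no gene did (0%), and 4 did at an unadjusted p under 0.05, as did 8.69% of all genes. The count of adjusted calls was 1 without DIA node 2 and 2 without AAT node 1. For DIA vs NOR the corresponding value was −2.84 ± 1.14 for Pparg (adjusted p = 0.487), and 0 members passed, beside 0.011% of all genes, with 1 at an unadjusted p under 0.05, beside 8.78%. The node comparisons AAT vs DIA and AAT vs NOR share their AAT arrays.

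Whether the node arrays carried fat was examined through the adipocyte genes that are not members. As a percent of the median fat array, measured in the same probe set, Fabp4 in nodes was 2.83% to 5.14% in NOR, 2.20% and 3.31% in DIA and 7.78% to 30.1% in AAT. Car3 was 0.175% to 1.20% in NOR, 0.114% and 0.156% in DIA and 1.31% to 15.4% in AAT. Lpl was 0.594% to 3.16% in NOR, 0.442% and 0.457% in DIA and 1.58% to 14.7% in AAT. Pparg stayed at 0.402% to 4.03% outside AAT node 2, where it was 8.52%.

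The 21 other adipocyte markers had a median of 1.29% to 2.58% of fat in the NOR nodes, 1.76% and 0.626% in the DIA nodes, and 1.19%, 3.72%, 2.23% and 0.971% in AAT nodes 1 to 4. The medians of the 7 members in the same AAT nodes were 2.79%, 13.2%, 8.27% and 14.7%. In AAT node 4 Cebpb was at 82.2% of fat, Fabp4 at 30.1%, Car3 at 15.4% and Lpl at 14.7%, while Pparg and Cebpa, at 1.44% and 2.67%, lay within the range of the NOR nodes. AAT node 2 had the highest median of the other markers. The percents of members and markers use signals as measured, without the median change of all probe sets taken off. Relative to the median of all genes, the median change was 0.876 for the 21 markers and 2.18 for the 7 members in AAT vs NOR. In AAT vs DIA it was 0.812 for the markers and 2.11 for the members.

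Adipoq, which adipocytes secrete, gave 180, 169, 61.9 and 249 in NOR nodes, 207 and 73.4 in DIA nodes and 46.2, 1570, 141 and 606 in AAT nodes, against 15690 to 60260 in fat. Its highest node value was 3.75% of fat, in AAT node 2. Other markers of the list reached further, with Lep at up to 63.2% of fat in NOR and 50.5% in AAT nodes, Orm1 at up to 32.2% in NOR, and Scd1, Dgat2 and Thrsp at up to 27.1%, 26.2% and 20.5% in AAT. In AAT vs NOR, 13 of the 21 other markers lay above the median of all genes and 1 was called higher, where 1.82% of all genes were. It was the desaturase Scd1 (2.43 ± 0.42 SE, adjusted p = 0.0321, limma), with signals of 3968, 4499, 5164 and 3454 in NOR and 8125, 17550, 13000 and 19690 in AAT. Against DIA 15 lay above the median and 0 were called, beside 0.181% of all genes called higher. Lipe, the hormone sensitive lipase, was at −0.74 ± 0.78 in AAT vs NOR.

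**Figure D4:**
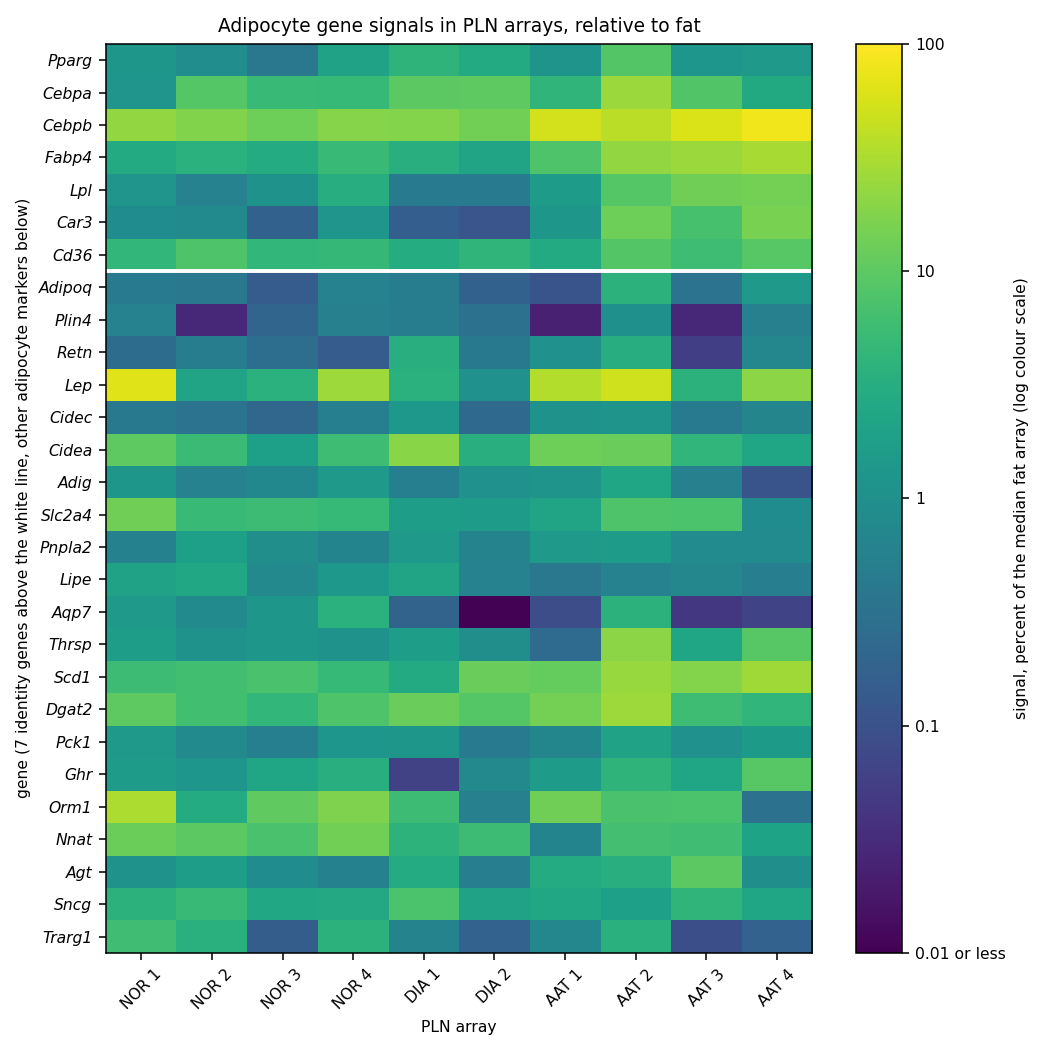
Signal of the 7 members (above the white line) and 21 other adipocyte markers (below it) in each of the 10 PLN arrays (horizontal axis), as a percent of the median fat array of the same probe set (colour, log scale). The members Cebpb, Fabp4, Lpl and Car3 are brighter in AAT nodes, while the highest node value of a single other marker runs from 1.02% for Plin4 to 63.2% for Lep, in a NOR node.

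Macrophages also express Fabp4, Lpl and Cd36. Of 17 macrophage markers 15 lay above the median of all genes in AAT vs NOR and 13 in AAT vs DIA. Their median change relative to that of all genes was 0.991 in AAT vs NOR and 1.47 in AAT vs DIA. Csf1r, the receptor that macrophages need to survive, was the 1 marker called in each, where 1.82% and 0.181% of all genes were called higher. It changed by 2.43 ± 0.36 (SE; adjusted p = 0.0203, limma) in AAT vs NOR and 3.07 ± 0.44 (adjusted p = 0.0363, limma) in AAT vs DIA. Its signals were 6855, 7497, 6195 and 11750 in NOR, 3008 and 6870 in DIA and 22690, 20140, 34370 and 27020 in AAT.

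As mean log2 signal, the 17 macrophage markers lay at 9.92, 10.42, 10.01 and 9.98 in NOR nodes, 9.45 and 9.51 in DIA nodes and 9.62, 11.12, 10.40 and 10.43 in AAT nodes. AAT node 1, whose Car3, Lpl and Fabp4 signals were the lowest of the 4, was also the lowest of them in these markers. The highest did not match, since the markers were highest in AAT node 2 and Car3, Lpl and Fabp4 in AAT node 4. In these markers AAT node 1 lay above the DIA nodes and below every NOR node. Its Fabp4, Car3 and Cebpb signals lay above every NOR node, and its Lpl signal lay within the NOR range. Fabp5, a fatty acid carrier of macrophages and skin and a relative of Fabp4, was called higher in AAT vs NOR (2.65 ± 0.34 SE, adjusted p = 0.00947), with 9818, 9730, 10600 and 10380 in NOR and 57380, 28330, 35930 and 37940 in AAT. Fabp3, the carrier of heart and muscle, was called lower (−3.41 ± 0.85, adjusted p = 0.0188).

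Relations of each member with the 2 marker lists were computed over the 10 nodes, 14 in all. Cd36 followed the macrophage markers, with Pearson r = 0.883 (permutation p = 0.00093, adjusted p = 0.013) and Spearman rho = 0.915 (permutation p = 0.00063, adjusted p = 0.00882). Without the 2 nodes farthest from the median of that list, AAT 2 and DIA 1, r was 0.868, and after the group means were taken off it was 0.866. Car3 followed them at r = 0.792 (permutation adjusted p = 0.0429) and rho = 0.709 (permutation adjusted p = 0.166), with r = 0.674 without the same 2 nodes and 0.655 after group means were taken off (permutation adjusted p = 0.14). Without AAT node 1 and AAT node 2 the last value was 0.11. Fabp4 and Lpl had r = 0.692 and 0.701 with the macrophage markers and did not pass (permutation adjusted p = 0.0916 for each). The other adipocyte markers had r from 0.07 to 0.50 with the 7 members, and 0 of these 7 relations passed. The count for that list was 3 with quantile normalization and 4 with median centring, and the count for the macrophage markers, 2 of 7, was 5 with median centring, 4 with 32 added to the signal and 0 with averaged probe sets. The relation of Cd36 is that of probe set 1450883_a_at. Over the nodes this probe set correlated at 0.42 with 1423166_at and at 0.27 with 1450884_at. No group holds 6 nodes, so r within a group was not computed.

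Pparg had r = 0.501 with the other adipocyte markers over the 10 nodes, which was 0.08 without AAT node 2 and NOR node 1. After group means were taken off it was 0.915 (permutation adjusted p = 0.00728), with Spearman rho = 0.855 (permutation adjusted p = 0.0251) and r = 0.808 without the same 2 nodes. Every permutation p-value after group means were taken off, also that of Car3, comes from shuffling the 10 deviations across groups. Deviations cancel out within a group, so these p-values can be too small. The nodes share depth and RNA quality as well as cells, and the part of either in these relations was not tested. Pancreatic acinar markers, which a node taken with adjoining pancreas could hold, averaged 13.49 on the log2 scale in AAT node 3 and 9.14 in DIA node 1, against 5.46 to 7.53 in the other 8. The part of such tissue in the members' values was not tested.

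Among themselves, the members correlated differently in the 2 tissues. Over the 10 nodes the log2 signals of Fabp4 correlated with those of Lpl at 0.94, of Car3 at 0.94 and of Cebpb at 0.90, while Pparg and Cebpa correlated with these 4 at −0.12 to 0.25. Over the 9 fat arrays Fabp4 and Car3 correlated at 0.97, while they correlated with Lpl at −0.18 and −0.34 and with Cd36 at −0.52 and −0.58. These values describe arrays that share group, amplification and RNA quality, and they hold for the highest-mean probe sets only. In fat, Car3 1449434_at correlated at −0.73 with 1430584_s_at, and Fabp4 1451263_a_at at −0.72 with 1424155_at. In nodes the Lpl probe sets correlated at 0.12 and the Cebpb probe sets at −0.49.

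The genes most like each member were ranked by Pearson r among 11261 genes in fat and 10403 in nodes, those with a mean at or above the median of their tissue. Every gene was taken by its highest-mean probe set, so these ranks also hold for those probe sets only. In fat the first gene was Cltb for Pparg (0.93), Apba3 for Cebpa (0.96), Clec7a, a myeloid receptor for fungal glucans, for Cebpb (0.96), and Car3 for Fabp4 (0.97). It was the adipokine Retn for Lpl (0.96), Bmp2k for Car3 (0.98) and the acyl-CoA synthetase Acsl5 for Cd36 (0.97). The next were Mgst3 and St13 for Pparg, the lipase Lipe and Afg3l2 for Cebpa, H2-Eb1 and Lcmt2 for Cebpb, Txn1 and Ccdc13 for Fabp4, Gpx4 and Acvr1c for Lpl, Gins4 and Fabp4 for Car3, and Trib2 and Nrp1 for Cd36. In nodes the first gene was Dctn2 for Pparg (0.90), Swi5 for Cebpa (0.98), Abhd2 for Cebpb (0.95), the tetraspanin Cd151 for Fabp4 (0.97) and for Lpl (0.96), Selenop, the plasma selenium carrier, for Car3 (0.94), and Steap4 for Cd36 (0.91). The next were Cybb and Src for Pparg, Ccdc124 and Suclg1 for Cebpa, Socs3 and Mtx1 for Cebpb, Ackr3 and Selenop for Fabp4, Errfi1 and Fabp4 for Lpl, Fabp4 and Zfhx3 for Car3, and Sar1a and Trafd1 for Cd36.

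Of 27 paralogues, 6 were called higher in NOR fat than in NOR nodes, beside 13.2% of all genes, among them Cebpd, which acts beside Cebpb early in differentiation (2.30 ± 0.47 SE), and the carbonic anhydrases Car5b (4.06 ± 0.80) and Car4 (4.40 ± 1.03). Cebpd in nodes was 303, 522, 482 and 777 in NOR, 756 and 232 in DIA and 1045, 918, 2002 and 1328 in AAT, above all other nodes in AAT but not called (2.08 ± 0.46, adjusted p = 0.0889). In fat Cebpd was 2994 and 2088 in NOR, 804 and 934 in DIA, 2717 and 2922 in AAT, and 4256, 3154 and 4565 in PM. Both DIA arrays lay below all others, and the PM vs DIA change of 2.04 ± 0.29 had an adjusted p of 0.081 (limma), the lowest of any probe set in that comparison. Of 23 partners in fatty acid capture, 9 were called higher in NOR fat, beside the same 13.2%, with Gpihbp1 at 5.07 ± 0.99, the caveolar coat gene Cavin1 at 4.83 ± 0.57 and the LPL inhibitor Angptl4 at 3.92 ± 0.69. In AAT vs NOR nodes 1 of the 23 was called higher, Fabp5, beside 1.82% of all genes. Fabp3, also of this list, was called lower.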

How the data were processed

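Tissue and treatment status, as labelled, put the 19 arrays into 7 groups. The deposited table holds 1 intensity per probe set and array, on a linear scale. The submitters' processing notes name MAS5 (version not given) for the intensity values of the deposited table, and the paper's methods name RMA values, which were not used here. RNA was amplified before labelling, so ratios of low signals are less exact.

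Values under 1 were set to 1 (592 of 856919, none of a member) and log2 was taken. The 64 control probe sets were left out; of 45037 left, 34945 name 1 gene, 932 several and 9160 none. Models with a mean per group were fitted with limma 3.58.1 (eBayes with trend) in R 4.3.3, per tissue or, between tissues, over all arrays, and adjusted by Benjamini and Hochberg over all probe sets. The fit was tested on simulated data. Relations used 100000 permutations. Python 3.11.15, numpy 2.4.6, pandas 2.3.3, scipy 1.17.1 and matplotlib 3.10.9 did the rest.

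The members and all gene lists were chosen with earlier results of these data known. Named genes are all members, for each list up to 4 genes with the smallest p in a contrast and up to 2 with the highest mean, and the 3 genes most like each member; Adipoq, Gpihbp1, Angptl4, Car4, Lep, Orm1, Dgat2, Thrsp, Plin4 and Lipe beside them were chosen after their values were seen. Of 25 other adipocyte markers 21 matched the array. Alternatives were quantile normalization, median centring, a filter, a floor, a pseudocount, no trend, a replicate block, averaged probe sets, rank products (100 permutations), each array left out and, chosen after seeing the data, 3 fat arrays or 2 nodes left out and the RNA ratios as covariates. The number of arrays limits the precision.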

Additional observations from a re-analysis of the deposited data

Results flagged for a closer look

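In 34 groups of 4 node arrays, 1 for each probe set and group, 4 arrays lay far from the other 3; chance gives about 1 in 20 groups. Pparg was at 183.2 in AAT node 2, above the other AAT nodes. Cd36 probe set 1423166_at was at 11.68 in NOR node 1, below the other NOR nodes. Fabp4 probe set 1425809_at was at 257.0 in NOR node 1 and Cd36 probe set 1450883_a_at was at 1188 in NOR node 2, each above the other NOR nodes.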

How the results depend on the processing

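The count of members called higher in NOR fat was 7 in the 9 alternatives and 19 single omissions run for it, and the exact permutation count over all arrays was 7 in the 5 alternatives and 19 omissions run for it. Calls were 6 to 7 in DIA mice and 4 to 7 in AAT mice. Within fat and in PLN DIA vs NOR the count of called members was 0 in each alternative run.

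The node calls after AAT were sensitive to the processing. In AAT vs DIA the 3 calls became 1 with median centring or the replicate block, and 0 with values floored at the 20th percentile, eBayes without a trend, averaged probe sets, the actin ratio as covariate, or without AAT nodes 2 and 4. In AAT vs NOR the 4 calls became 2 with quantile normalization, the floor, or without AAT nodes 2 and 4, and 0 without a trend, with averaged probe sets or with the Gapdh ratio as covariate. With single arrays left out they ranged from 0 to 3 and from 2 to 4, and calls in the fat minus PLN difference of AAT vs DIA from 0 to 2. The 2 relations past the threshold became 5 with quantile normalization, 9 with median centring, 4 with 32 added to the signal, 0 with averaged probe sets and 1 to 4 with single arrays left out. The cause was not tested.

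Of the log2 changes, 54 turned sign, 65 left the threshold and 935 did neither. With averaged probe sets, the values that turned were −0.0142 for Cebpb, 0.32 for Car3 and 0.43 for Cd36 in fat DIA vs NOR, −0.54 for Fabp4 and −1.42 for Car3 in fat AAT vs DIA, −0.43 for Fabp4 and −1.11 for Car3 in fat PM vs DIA, and 1.53 and −0.53 for Cebpb in PLN DIA vs NOR and AAT vs DIA. With quantile normalization they were −0.0133 for Fabp4 in fat AAT vs DIA, 0.070 for Cebpa and 0.14 for Cd36 in fat PM vs DIA, and −0.26 for Cebpa in PLN AAT vs DIA. Without fat NOR 1, AAT 2 and PM 2 they were −0.44 for Fabp4, −0.20 for Car3 and 1.18 for Cd36 in AAT vs DIA, and 0.0070 for Cebpa, −0.072 for Fabp4 and 0.63 for Cd36 in PM vs DIA. In PLN AAT vs DIA, Cebpa was −0.12 with the filter, −0.21 with the floor, −0.11 with 32 added, −0.18 with the Gapdh ratio and −0.47 without AAT nodes 2 and 4, and Pparg was 0.18 with the floor, 0.0180 with 32 added and 0.025 with the actin ratio. With the actin ratio Cebpa was −0.23 and Cebpb 0.20 in PLN DIA vs NOR, and with the Gapdh ratio Cd36 was −0.23 in PLN AAT vs NOR.

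With single arrays left out, changes that turned ranged in fat DIA vs NOR from −0.23 to 0.71 for Cebpb, from −0.21 to 0.64 for Lpl and from −1.41 to 0.67 for Cd36, in fat AAT vs DIA from −0.44 to 0.55 for Fabp4, from −0.20 to 0.83 for Car3 and from −2.07 to 1.18 for Cd36, and in fat PM vs DIA from −0.50 to 0.23 for Cebpa, from −0.24 to 0.53 for Fabp4 and from −0.57 to 0.63 for Cd36. In PLNs they ranged in DIA vs NOR from −0.17 to 0.037 for Cebpb and from −1.01 to 0.0074 for Cd36, and in AAT vs DIA from −0.90 to 0.26 for Pparg and from −0.64 to 0.47 for Cebpa.

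The replicate numbers were not taken to pair the arrays, since not every same-numbered pair correlated over 0.1: deviations correlated at −0.32 to 0.33 in fat and −0.06 to 0.31 in PLNs, with 2 of 12 and 6 of 8 pairs over 0.1, against 6 of 24 pairs of different numbers in PLNs. The replicate block left 1 call in PLN AAT vs DIA, and with it Pparg was 0.17 there and Cebpb 0.10 and Fabp4 0.13 in PLN DIA vs NOR.

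Groups of 2 to 4 arrays, amplified RNA and dim node signals, with Pparg as low as 8.64, limit the size of change these arrays resolve. The added omissions and covariates were chosen after seeing the data.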
